A study of Rattus norvegicus with 18 samples.

Results

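Oligodendrocyte progenitor cells (OPCs) of aged rats, grown on a soft hydrogel and on a stiff hydrogel, were compared in 6 of the 18 libraries of the series, 3 from each gel. Libraries were assigned to a gel by their labels, which also mark every sample as cells enriched with magnetic beads and cultured with FGF and PDGF on gels coated with laminin. The aged soft libraries and the aged stiff libraries therefore share age, growth factors and coating, and differ in the gel alone as far as the labels go. Neonate OPCs on a soft gel and on a stiff gel (3 libraries each) were used for the test of whether the gel difference depends on age, and aged and neonate primary sorted cells (3 libraries each) only for the scaling, the shared estimate of the spread and as values beside the others, although the labels repeat the culture text for them. The stiffness of either gel, the age in months, the strain, the sex and the time in culture are not given in the sources used here. The labels do not say whether the 3 libraries of a gel are separate animals or cultures, so each p-value reflects the spread among these libraries alone, and that spread may be technical.

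OPCs are the dividing glial cells that form the myelinating oligodendrocytes of the brain and spinal cord, and they lose much of that capacity with age. Cells sense the stiffness of what they adhere to through integrins, focal adhesions, the actin and myosin cytoskeleton and mechanosensitive ion channels such as Piezo1, and such signals can reach the nucleus through the lamina and through the transcriptional cofactors YAP, TAZ and MRTF. Central nervous system tissue becomes stiffer with age in rodents, and the comparison asks what a softer surface does to the transcriptome of aged OPCs.

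Levels are scaled TPM, a length-corrected share of all transcripts that the authors' quantification gave, summed per gene and divided by 1 scaling factor per library. Values are given for replicates 1, 2 and 3 in that order. Depth was low: 45275, 29041 and 105647 read pairs lay on annotated exons outside ribosomal RNA in the aged soft libraries, against 40723, 22200 and 31633 in the aged stiff libraries, if each pair covers 300 bases. Of 17337 genes, 13861, 10536 and 10849 had any coverage on soft gels, against 12371, 6850 and 5842 on stiff gels. The soft libraries were thus covered more widely on the whole, but the groups overlapped (exact two-sided permutation test, p = 0.3, where the smallest p that 3 against 3 libraries allow is 0.1). Of 15 housekeeping genes 1, 0 and 1 were listed at 0 in the soft libraries, against 0, 4 and 6 in the stiff libraries, so genes listed at 0 may still have been expressed. Among the genes tested 35.2% of the values in these 6 libraries were 0.

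Thinned to 22142 pairs each, the libraries still covered 9372, 7648 and 6546 genes on soft gels, against 8601, 5710 and 4798 on stiff gels (exact two-sided permutation test, p = 0.4). Replicate 1 of each gel stood highest in its group. Olfactory receptor genes, which encode odorant receptors of nasal sensory neurons, had coverage at 66.9%, 39.1% and 30.8% of their loci in the soft libraries, against 54.7%, 16.1% and 1.34% in the stiff libraries (p = 0.4, same exact test). They made up 7.28%, 3.19% and 2.49% of the TPM outside ribosomal RNA on soft gels, against 7.44%, 3.08% and 0.269% on stiff gels. Stiff replicate 3 therefore stood far below the other 5 libraries in these genes. The part that this difference in coverage plays in the comparisons below was not tested.

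**Figure D1:**
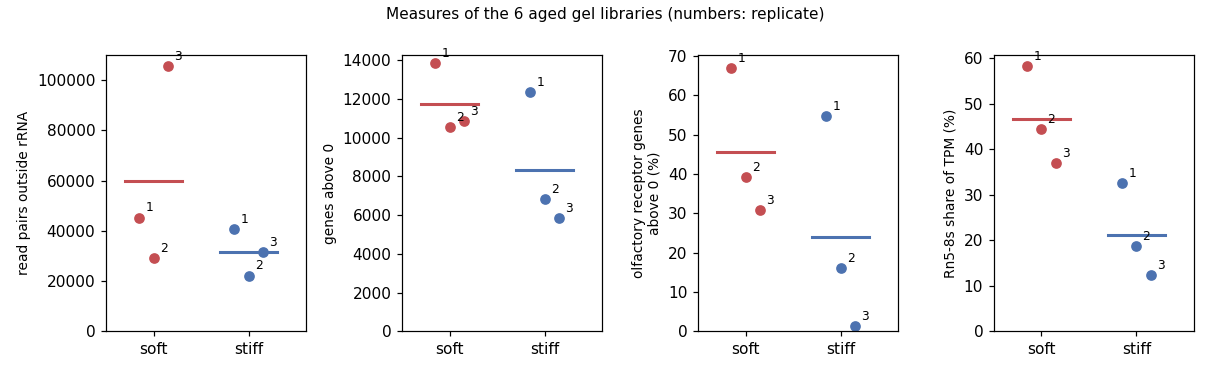
Read pairs outside ribosomal RNA, genes above 0, the percentage of olfactory receptor genes above 0 and the Rn5-8s (5.8S ribosomal RNA) percentage of TPM, with a numbered point per library and a line at the mean, for aged soft (left) and aged stiff gels (right). The groups overlap in the first 3 panels, while the 5.8S share lies between 37.0% and 58.3% on soft gels and between 12.3% and 32.5% on stiff gels.

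Of 15144 genes tested, 12 rose on soft gels past an adjusted p of 0.05 (limma, Benjamini-Hochberg over all genes tested), which is 0.0792% of them, and 0 fell. They included Dctn6 and Rpl27, genes of a motor adaptor and of the ribosome, and 10 genes of mixed function. At an unadjusted p under 0.05 there were 1440 genes with the higher level on soft gels (9.51%) and 206 with the lower (1.36%). Soft and stiff values did not overlap in 1004 genes that were higher on soft gels (6.63%) and in 256 that were lower (1.69%). The count of 12 was 69 without stiff replicate 1, 60 without stiff replicate 3, 6 without soft replicate 1, 3 without soft replicate 3 and 117 without replicate 1 of both gels, and it was 0 when only these 6 libraries were fitted (limma, 750 at an unadjusted p under 0.05). The count was 1 or 7 when 1 neonate gel library was left out. A neonate library enters this difference only through the filter, the scaling and the shared spread. With quantile normalization 17 genes were higher and 3 lower.

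Under the scaling used, that imbalance was found among thinly covered genes. The median difference, soft minus stiff, was 0.59 on the log2(scaled TPM + 1) scale over all genes tested, against -0.00 over the 2985 genes above 0 in all 6 libraries and -0.05 over the 262 genes with a mean of at least 100 scaled TPM. Scaling centred each library on 1644 genes with coverage in all 18 libraries, and these are among the 2985. A median near 0 over widely covered genes is thus largely set by the scaling. In these 262 genes 27 were higher on soft gels without overlap (10.3%) and 30 were lower (11.5%). There were 368 genes with coverage in every soft library and in no stiff library, against 10 the other way round. Of the 12 genes that rose, 9 were of this kind, so their fitted differences depend on the pseudocount of 1 and no fold is given for them.

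Dctn6 had the smallest p of all genes. It encodes a subunit of dynactin, the complex that links the dynein motor to its cargo. Scaled TPM was 32.4 in soft replicate 1, 31.2 in replicate 2 and 29.5 in replicate 3, and the gene was listed at 0 in all 3 stiff libraries. The soft libraries lay close together and apart from every stiff one (log2 difference 5.0 ± 0.74 SE, adjusted p = 0.00452, limma). These levels rest on 2.34, 1.87 and 6.41 read pairs in the soft libraries. The gene lies at chr16:61795544-61814734 on the plus strand of rn6. It remained past the threshold in 21 of 24 alternative settings, and in all 6 fits that each left out 1 of these libraries. It was not called with precision weights from read pairs (voom), with a weight per library (array weights), or with only these 6 libraries fitted.

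Rpl27, which encodes part of the large subunit of the ribosome, had the most reads of the called genes, 26.6, 18.4 and 70.5 pairs on soft gels and 3.85, 3.67 and 9.57 on stiff gels. Its level was 792, 658 and 697 scaled TPM in the soft libraries, against 129, 170.1 and 255 in the stiff libraries. The lowest soft library stood well above the highest stiff one, with means of 716 ± 69.1 and 185 ± 64.0 (SD, n = 3 each), a ratio of 3.87 (log2 difference 2.0 ± 0.40 SE, adjusted p = 0.0382, limma). In neonate cells the same gene had 1158, 1108 and 806 scaled TPM on soft gels and 1577, 1422 and 895 on stiff gels. The aged stiff libraries thus held the lowest levels of the 4 gel groups. The gene lies at chr10:89353129-89356563 on the plus strand of rn6, and it stayed called in 7 of 24 alternative settings and in 2 of the 6 that left out 1 library.

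Of the called genes 4 more belong to general cell machinery. Pcbp2, which encodes a poly(C)-binding regulator of mRNA stability and translation (chr7:144077906-144102139), had 9.39, 32.3 and 44.8 scaled TPM on soft gels and was listed at 0 on all stiff gels (log2 difference 4.65, adjusted p = 0.0321, limma). Pde6d, whose product carries prenylated proteins such as Ras-family members between membranes (chr9:93562100-93607028), had 57.4, 15.1 and 38.4 on soft gels and was at 0 on stiff gels (5.06, adjusted p = 0.0321, limma). Both were covered in every neonate gel library but for Pde6d in neonate stiff replicate 2. Stx4, a plasma membrane SNARE used in exocytosis (chr1:199287895-199294979), had 23.4, 11.5 and 83.9 scaled TPM on soft gels and 1.20, 0 and 0 on stiff gels (4.51, adjusted p = 0.0321, limma). Atp6v0e2, a subunit of the proton pump that acidifies lysosomes and endosomes (chr4:78168117-78171265), had 31.2, 31.1 and 27.1 on soft gels and 8.59, 0 and 0 on stiff gels (3.85, adjusted p = 0.0455, limma). In each of the 4 genes the soft libraries all exceeded the stiff ones, with the widest spread on soft gels in Stx4.

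The other 6 were listed at 0 in all stiff libraries and in all 6 neonate gel libraries. Defb13, a beta-defensin gene (chr16:75027131-75028977), had 34.5, 53.4 and 133 scaled TPM on soft gels (log2 difference 6.0, adjusted p = 0.0321, limma). Lgals9, which encodes galectin-9, a sugar-binding protein of immune cells (chr10:64737022-64760195), had 23.8, 28.3 and 11.5 (4.38, adjusted p = 0.0336, limma). These levels were highest in replicate 3 for Defb13 and lowest in replicate 3 for Lgals9. Ascl3, a transcription factor of the achaete-scute family, had 27.5, 23.9 and 6.65 (4.13, adjusted p = 0.0336, limma). Bsnd, which encodes barttin, a chloride channel subunit of kidney and inner ear, had 17.6, 20.6 and 9.90 (4.03, adjusted p = 0.0336, limma). The olfactory receptor gene Olr244 had 21.6, 22.9 and 15.3 (4.37, adjusted p = 0.0321, limma), and Olr1457, of the same family, had 37.3, 10.1 and 19.3 (4.36, adjusted p = 0.0336, limma). All 6 genes had coverage in each soft library, though at few reads. Elsewhere Defb13, Lgals9 and Olr1457 had coverage only in aged primary replicate 1, and Ascl3, Bsnd and Olr244 in no library. All 6 thus met the filter for testing (TPM of 1 in 3 or more libraries) only through the soft libraries where they are high. Groups at 0 add no spread to the shared estimate, so these p-values are partly set by that selection. With only the 6 aged gel libraries fitted, 0 genes were called. Over the 12 called genes a soft library held between 0.517 and 70.5 read pairs, with a median of 2.57 and a highest value of 18.3 outside Rpl27. A value under 1 arises where less than a whole pair falls on annotated exons. Of 795 olfactory receptor genes tested, 571 had the higher level on soft gels and 50 were higher without overlap, a share close to the 6.63% of all genes, with a median difference of 1.03 beside 0.59 for all genes.

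**Figure D2:**
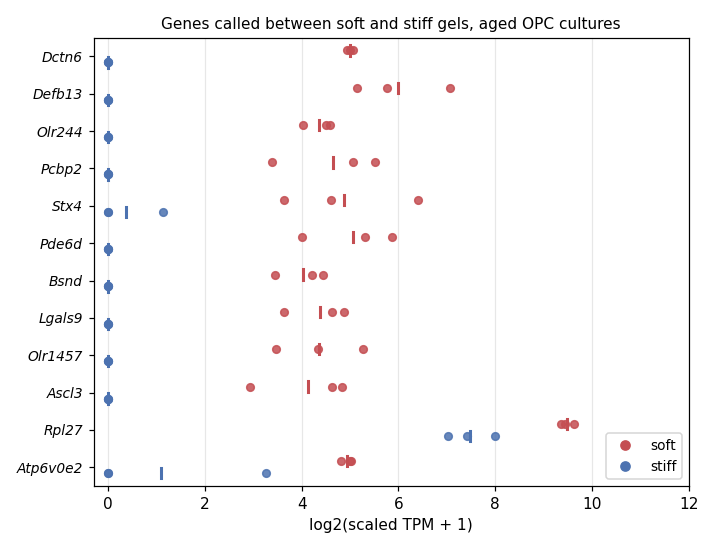
Levels of the 12 called genes as log2(scaled TPM + 1), with a point for each aged soft library (red) and each aged stiff library (blue) and a tick at the group mean of the log2 values. Apart from Rpl27, whose stiff libraries hold 129 to 255 scaled TPM, the stiff points lie at 0 or, in 1 library each, below the soft points of Stx4 and Atp6v0e2.

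Whether the gel difference depends on age was tested with an interaction term, taking the difference between gels in aged cells less the one in neonate cells. Dctn6 was the only gene past the threshold, 0.0066% of the 15144 tested, with an interaction of 6.12 on the log2 scale (adjusted p = 0.0475, limma). Its level was 28.2, 39.6 and 31.1 scaled TPM on neonate soft gels and 38.3, 188 and 51.6 on neonate stiff gels, so that the aged stiff libraries alone lacked coverage. At an unadjusted p under 0.05 the interaction counted 793 genes, and neonate cells had 0 called genes between the gels and 438 at an unadjusted p under 0.05. The interaction called 0 genes without a filter, without scaling, with quantile normalization and with voom, so the call of Dctn6 depends on the processing.

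Ribosomal protein genes, which encode the proteins of the ribosome, include many well-covered members. The files held 85 cytosolic ribosomal protein genes, of which 83 were tested. Of these 72 had the higher level on soft gels and 10 the lower, 1 rose past the threshold (Rpl27), 30 were higher and 1 lower at an unadjusted p under 0.05 (9.51% and 1.36% of all genes tested), and 16 were higher without overlap, against 0 lower (6.63% and 1.69% of all genes). Their median difference was 1.12 on the log2 scale, beside 0.59 over all genes and 1.06 over 15 housekeeping genes, of which 12 were higher on soft gels and 3 higher without overlap. In neonate cells, over their own libraries, the median of the same list was -0.11.

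In the large subunit 43 of 49 tested genes had the higher level on soft gels, 12 of them without overlap, with a median of 1.19. In the small subunit these numbers were 29 of 34, 4 and 0.79. Members other than Rpl27 that are named here did not pass the threshold, and Rpl11, Rpl39 and Rplp1 were chosen after their values were seen. Rps13, of the small subunit, had 6763, 6128 and 5028 scaled TPM on soft gels and 869, 1832 and 4408 on stiff gels, a log2 difference of 1.63 ± 0.44 SE (adjusted p = 0.155, limma). Every soft library exceeded every stiff one, but stiff replicate 3 came close. Rpl13, of the large subunit, was even within the stiff group, with 1234, 1691 and 1918 on soft gels and 828, 853 and 861 on stiff gels (0.90 ± 0.38 SE, adjusted p = 0.382, limma). Rpl11, a large-subunit protein that also binds Mdm2, had 717, 721 and 654 on soft gels and 157, 345 and 528 on stiff gels, where again stiff replicate 3 was nearest to the soft libraries.

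Rpsa, a small-subunit protein also known as the laminin receptor, had 196, 199 and 116 scaled TPM on soft gels and 24.2, 37.9 and 54.5 on stiff gels (log2 difference 2.13 ± 0.52 SE, adjusted p = 0.136, limma). Fau, which encodes a ubiquitin-like protein fused to a small-subunit protein, had 914, 997 and 449 on soft gels and 270.1, 245 and 68.3 on stiff gels (2.16 ± 0.59 SE, adjusted p = 0.159, limma). Its lowest level was in stiff replicate 3, unlike Rps13 and Rpl11. Rpl39, of the large subunit, had 949, 1340.2 and 744 on soft gels and 148, 378 and 739 on stiff gels. The highest stiff library of Rpl39 reached almost the lowest soft one. Rplp1, a protein of the ribosomal stalk, went the other way with 0, 119 and 0 on soft gels and 86.9, 61.8 and 107 on stiff gels, and its groups overlapped. Ribosomal protein genes have many near-identical processed copies, and 17 of the 85 symbols have more than 1 locus in the files, so the values of single members are uncertain where reads could be split.

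Summed, ribosomal protein genes took 6.68%, 9.15% and 9.32% of the TPM outside ribosomal RNA on soft gels, against 3.10%, 4.18% and 8.42% on stiff gels. Stiff replicate 3 lay between the soft libraries, so the groups overlapped in the sum. Neonate gel libraries held more, with 17.3%, 13.9% and 14.3% in neonate soft and 16.4%, 17.8% and 15.5% in neonate stiff libraries, where the groups also overlapped. The list's median difference relative to all genes, 0.52 on the log2 scale, was -0.16 without stiff replicate 1, 1.03 without stiff replicate 3, and 0.37 without replicate 1 of both gels.

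**Figure D3:**
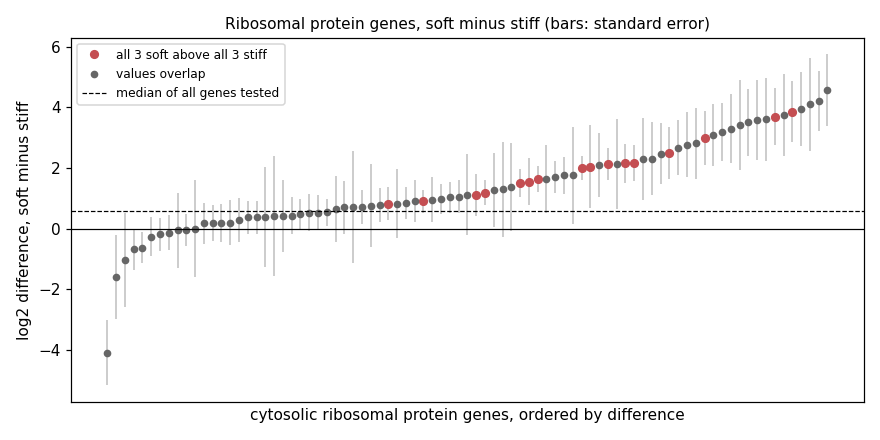
Log2 difference, aged soft minus aged stiff, of each of the 83 tested ribosomal protein genes, ordered by size, with bars of 1 standard error, a solid line at 0 and a dashed line at the median of all genes tested (0.59). Of these genes 72 lie above 0, and the 16 whose soft values all exceed their stiff values are in red.

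Ribosomal protein mRNAs are known in mammals for a stretch of pyrimidines that begins at the first transcribed base and through which mTOR signalling controls their translation. The start regions of 4 members whose aged levels did not overlap are shown because each holds a run of pyrimidines near the annotated start, and Rpl11 is shown as a member whose window has no long run. The run begins at the annotated start in Rpl13, shortly after it in Rps13 and Fau, and lies wholly before it in Rpsa. Each is the strand of the gene from 60 bases before to 20 bases after the annotated start, taken from RefSeq on GRCr8, a later build than that of the files. Capitals mark the longest run of C and T within 20 bases of the start.
Rps13, chr1:180009641-180009720, minus strand: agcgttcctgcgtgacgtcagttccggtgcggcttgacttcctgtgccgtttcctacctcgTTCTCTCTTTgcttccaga
Rpl13, chr19:68062454-68062533, plus strand: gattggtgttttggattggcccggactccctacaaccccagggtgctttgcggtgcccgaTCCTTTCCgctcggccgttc
Fau, chr1:212779453-212779532, plus strand: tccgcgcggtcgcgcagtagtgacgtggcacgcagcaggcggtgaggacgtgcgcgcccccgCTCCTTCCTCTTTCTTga
Rpsa, chr8:128728819-128728898, plus strand: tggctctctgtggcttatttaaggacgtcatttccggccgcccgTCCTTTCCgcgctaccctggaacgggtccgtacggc
Rpl11, chr5:153560783-153560862, minus strand: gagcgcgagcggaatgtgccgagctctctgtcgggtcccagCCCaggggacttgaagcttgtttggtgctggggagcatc
A run of at least 8 C or T on the gene's strand within 20 bases of the start was present in 49 of 68 entries for ribosomal protein genes, or 72.1%, against 15.5% of all 33469 entries of the table. Among the members that were higher without overlap it was present in 12 of 14 entries, and among the other members in 37 of 54, or 68.5%. The run was thus common in both sets. Such a match describes letters in a window and says nothing of translation in these cells. Rpl27 has no entry in the table used.

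Ribosomal RNA itself took similar shares on both gels, 76.5%, 74.0% and 63.9% of the TPM on soft gels against 74.7%, 67.4% and 70.6% on stiff gels (p = 1, exact two-sided permutation test). Its 5.8S component, Rn5-8s, took 58.3%, 44.4% and 37.0% on soft gels and 32.5%, 18.7% and 12.3% on stiff gels. Every soft library was above every stiff library, with means of 46.6% ± 10.8 and 21.2% ± 10.3 (SD, n = 3 each), and the exact two-sided permutation p was 0.1, the smallest the design allows. This was the one of 6 library measures tested whose groups did not overlap. Of 6 ribosomal RNA genes tested 4 had the higher scaled level on soft gels and 2 the lower. Without overlap 0 were higher and 1 was lower (6.63% and 1.69% of all genes). The scaled level of Rn5-8s thus overlapped between the gels, unlike its share of TPM. In the main fit 0 ribosomal RNA genes were called in either direction. LOC257642, counted here as ribosomal RNA, was called lower on soft gels only in an alternative fit with precision weights from read pairs (voom, -1.41, adjusted p = 8.61e-08, limma on voom values), not in the main fit. Rn5-8s was above 0 in every library, and the part of library preparation in its share was not tested.

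Genes of the machinery by which cells sense stiffness gave 0 calls in the main setting, where 0.0792% of all genes were called, so few calls could fall on lists of this size. Of 12 mechanosensitive channel genes, all tested, 10 had the higher level on soft gels and none was free of overlap, with a median difference of 0.94 on the log2 scale beside 0.59 over all genes. Relative to all genes that median stayed above 0 over 19 settings, from 0.15 to 0.63. Piezo1 had 16.8, 21.5 and 19.3 scaled TPM on soft gels and 27.2, 25.5 and 5.41 on stiff gels (0.25 ± 0.93 SE, adjusted p = 0.961, limma). Its groups overlapped, with means of 19.2 ± 2.33 and 19.4 ± 12.1 (SD, n = 3 each), and its reads cannot be told apart from those of Ctu2 on the opposite strand. Neonate gel libraries held 1.15 to 5.38 scaled TPM of Piezo1.

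Of 20 integrin and focal adhesion genes, 14 had the higher level on soft gels, with a median of 0.50, and 1 was higher and 1 lower without overlap (6.63% and 1.69% of all genes). Itgb3, the integrin beta3 chain that binds vitronectin and osteopontin, had 1.04, 0 and 2.81 scaled TPM on soft gels and 11.4, 32.0 and 52.5 on stiff gels (-3.82 ± 1.11 SE, adjusted p = 0.197, limma). All 3 stiff libraries exceeded the soft ones, on 1.61 to 9.43 read pairs. Ptk2, the focal adhesion kinase FAK, had 23.7, 15.5 and 33.6 on soft gels and 9.05, 9.0 and 10.2 on stiff gels (1.22 ± 0.92 SE, adjusted p = 0.689, limma). The stiff libraries were nearly equal and below all soft ones, and 2 microRNA genes lie within the same span.

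Of 30 actin and myosin genes 15 had the higher level on soft gels and 15 the lower, with a median of 0.08. Without overlap 2 were higher and 2 lower (6.63% and 1.69% of all genes), and of these only the higher ones are named here. Actg1, cytoplasmic gamma-actin, had 422, 622 and 339.9 scaled TPM on soft gels and 109, 94.0 and 262 on stiff gels (1.68 ± 0.44 SE, adjusted p = 0.155, limma), without overlap. Its symbol has 2 loci in the files. Actb, cytoplasmic beta-actin, had 1649.9, 3024 and 2853 on soft gels and 1677, 1284 and 2245 on stiff gels (0.52 ± 0.35 SE, adjusted p = 0.651, limma), with overlap. Myl12b, a regulatory light chain of nonmuscle myosin, had 75.9, 76.0 and 60.1 on soft gels and 36.7, 13.4 and 29.1 on stiff gels, and was higher in all 3 soft libraries (1.49 ± 0.61 SE, adjusted p = 0.361, limma). Myl6, an essential light chain, had 320.2, 909 and 17.0 on soft gels and 878, 676 and 1099 on stiff gels (-2.32 ± 0.86 SE, adjusted p = 0.311, limma), its spread on soft gels set by replicate 3. Its locus overlaps Myl6b and Myl6l. With voom Myl6 was called lower on soft gels (-3.25, adjusted p = 0.022, limma on voom values). Over 24 alternatives the adjusted p ran from 0.022 to 0.721 for Myl6 and from 0.0261 to 0.652 for Actg1 (limma).

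Targets and parts of the YAP and TAZ pathway did not separate the gels either: of 22 genes 12 had the higher level on soft gels and 10 the lower, with a median of 0.30 and none free of overlap. Relative to all genes that median stayed below 0 over 19 settings, from -0.62 to -0.15. Yap1 itself was near the limit of detection, with 3.63, 0 and 0 scaled TPM on soft gels and 0, 4.36 and 0 on stiff gels. Of 13 SRF and MRTF targets 6 were higher and 7 lower, with a median of -0.33. Lmna, the lamin A and C gene whose protein level follows tissue stiffness in mammals, had 57.6, 60.4 and 54.6 on soft gels and 32.4, 19.2 and 92.8 on stiff gels, with overlap (0.55 ± 0.83 SE, adjusted p = 0.858, limma). Vim, the intermediate filament vimentin, had 183, 235 and 97.3 on soft gels and 349.7, 299.9 and 269 on stiff gels, lower in all 3 soft libraries (-0.91 ± 0.67 SE, adjusted p = 0.683, limma). Collagen genes had a median of 0.06 over 13 tested genes, with none free of overlap.

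Matrix genes other than collagens, among them the laminins and secreted glycoproteins, took 0.284%, 0.426% and 0.489% of the TPM outside ribosomal RNA on soft gels and 0.555%, 1.23% and 0.778% on stiff gels, without overlap. Of 26 tested genes 17 nevertheless had the higher level on soft gels. Much of the sum was Spp1, osteopontin, with 521, 579 and 937 scaled TPM on soft gels and 1123, 2648 and 1223 on stiff gels. The separation of the sum thus rests largely on this gene. The gene was lower in every soft library (-1.23 ± 1.14 SE, adjusted p = 0.745, limma), and it is also made by activated microglia. Timp3, an inhibitor of matrix metalloproteinases, had 37.6, 60.9 and 46.4 on soft gels and 17.8, 0 and 16.7 on stiff gels (2.80 ± 0.83 SE, adjusted p = 0.210, limma), without overlap. Its locus overlaps Syn3.

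Immediate early genes, which respond within minutes to many stimuli, took 0.136%, 0.143% and 0.166% of the TPM outside ribosomal RNA on soft gels and 0.188%, 0.193% and 0.327% on stiff gels, also without overlap. Of 46 lists whose share was summed, 3 were lower on soft gels without overlap, these 2 and choroid plexus and ependyma genes, and 0 were higher. Of 21 immediate early genes 8 had the higher level on soft gels and 13 the lower, with a median of -0.07 beside 0.59 over all genes. Relative to all genes that median stayed below 0 over 19 settings, from -1.29 to -0.13. Fos had 47.9, 16.6 and 54.5 scaled TPM on soft gels and 88.0, 59.7 and 104 on stiff gels (-1.19 ± 0.85 SE, adjusted p = 0.67, limma). Jun, its partner in the AP-1 factor, had 33.4, 14.6 and 13.8 on soft gels and 54.2, 92.7 and 50.7 on stiff gels (-1.69 ± 0.62 SE, adjusted p = 0.31, limma). Both were lower in all 3 soft libraries.

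**Figure D4:**
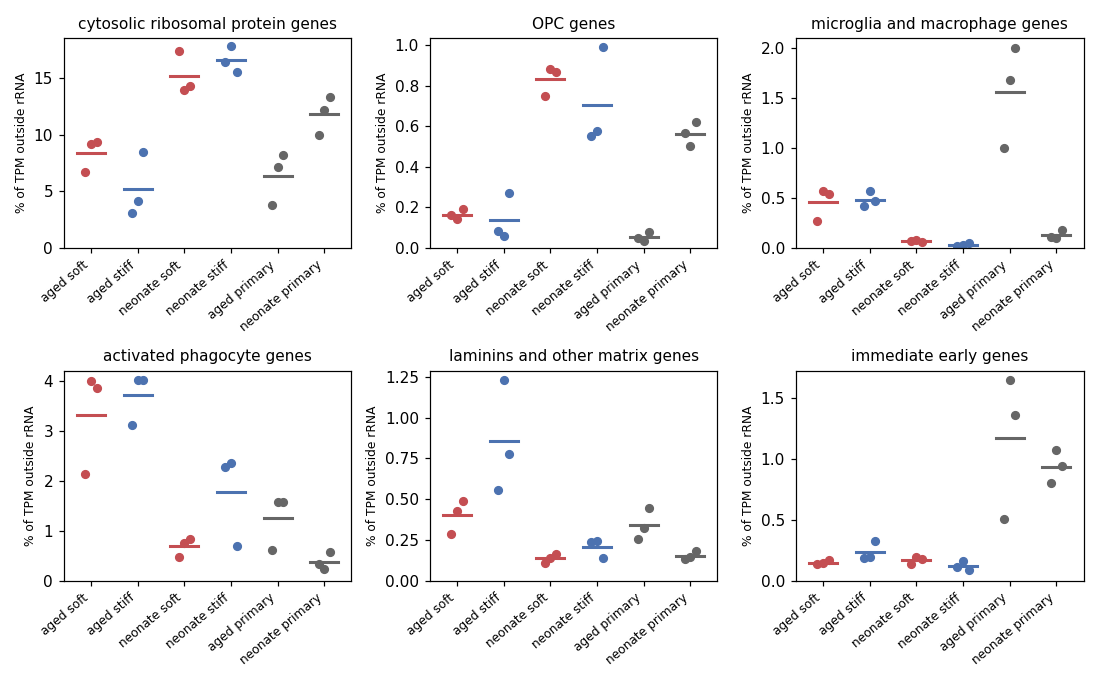
Summed share of 6 gene groups in the TPM outside ribosomal RNA (%), with a point per library and a line at the mean, in the 4 gel groups and both primary sorted groups. Between aged soft and aged stiff gels only the laminins and other matrix genes (0.284% to 0.489% on soft, 0.555% to 1.23% on stiff gels) and the immediate early genes (0.136% to 0.166% on soft, 0.188% to 0.327% on stiff gels) do not overlap among the groups plotted.

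The labelled cell type was checked against its markers. Of 17 OPC marker genes 17, 16 and 15 were above 0 in the soft libraries and 15, 12 and 15 in the stiff libraries, and 9 were above 0 in all 6. Together they took 0.161%, 0.143% and 0.190% of the TPM outside ribosomal RNA on soft gels and 0.0841%, 0.0601% and 0.273% on stiff gels, below the 0.550% to 0.989% of the neonate gel libraries. Pdgfra, the PDGF receptor that defines OPCs, had 8.48, 6.24 and 13 scaled TPM on soft gels and 11.5, 13.8 and 2.63 on stiff gels. Neonate gel libraries had 22.2 to 64.6.

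Of the OPC genes 13 had the higher level on soft gels and 4 the lower, with a median of 0.75 and none free of overlap. Olig2, a transcription factor of the whole lineage, had 26.1, 36.0 and 60.6 on soft gels and 29.8, 0 and 17.0 on stiff gels (2.27 ± 0.96 SE, adjusted p = 0.379, limma). Olig1, its relative, had 170.4, 166 and 233 on soft gels and 63.6, 10.6 and 240.2 on stiff gels, and Sox10, which maintains the lineage, had 20.5, 33.3 and 38.7 on soft gels and 15, 2.97 and 22.7 on stiff gels. In all 3 genes stiff replicate 2 was the lowest library, and in Olig1 stiff replicate 3 was the highest. Cspg4, the NG2 proteoglycan, had 4.65, 6.37 and 26.5 on soft gels and 11.6, 10.1 and 34.0 on stiff gels.

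Of 20 mature oligodendrocyte genes 16 had the higher level on soft gels and 3 the lower, with a median of 0.82 and none free of overlap. Mbp, myelin basic protein, had 71.5, 72.9 and 206 scaled TPM on soft gels and 2.30, 11.6 and 79.0 on stiff gels (2.79 ± 1.04 SE, adjusted p = 0.311, limma). Stiff replicate 3 reached the level of soft replicates 1 and 2. The interaction with age, 5.45 on the log2 scale, was not past the threshold (adjusted p = 0.608, limma), with neonate levels of 7.10, 24.6 and 84.0 on soft gels and 202, 211 and 102 on stiff gels. Relative to all genes the median of the OPC list ran from -0.75 to 0.30 over 19 settings and that of the mature oligodendrocyte list from -0.37 to 0.77, so neither kept its direction. Mki67, a marker of dividing cells, had 5.09, 3.70 and 11.7 on soft gels and 4.25, 4.51 and 13.9 on stiff gels (-0.08 ± 0.85 SE, adjusted p = 0.996, limma).

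Markers of other cells were present on both gels. Of 21 microglia and macrophage genes 20, 20 and 19 were above 0 in the soft libraries and 17, 15 and 11 in the stiff libraries, and their summed share was 0.269%, 0.571% and 0.544% of the TPM outside ribosomal RNA against 0.419%, 0.567% and 0.465%. The share of genes that activated phagocytes express was larger, with 2.13%, 4.0% and 3.86% on soft gels and 3.12%, 4.03% and 4.02% on stiff gels. Both sums overlapped between the gels and exceeded those of the OPC markers in each library. Of 21 activated phagocyte genes tested 10 had the higher level on soft gels and 11 the lower, with a median of -0.03 beside 0.59 over all genes. Without overlap 1 was higher and 3 were lower (6.63% and 1.69% of all genes). Relative to all genes that median ran from -1.22 to 0.04 over 19 settings. The libraries are bulk samples, so fewer cells of a type and less RNA per cell cannot be told apart. Of 15 astrocyte genes 2 and of 14 endothelial genes 3 were above 0 in all 6 libraries, against 0 of 15 neuron, 0 of 10 blood and 0 of 10 choroid plexus and ependyma genes. The last of these lists took 0.0216%, 0.00324% and 0.0227% on soft gels and 0.0351%, 0.0243% and 0.0707% on stiff gels, without overlap. Much of its sum on stiff gels was Kcnj13, with 11.5, 0 and 14.5 scaled TPM on soft gels and 57.5, 43.4 and 109 on stiff gels. Of the 9 genes of that list tested, 4 had the higher level on soft gels and 4 the lower. The part of cells other than OPCs in the gel differences was not tested.

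Within the microglia and macrophage list 16 genes had the higher level on soft gels and 5 the lower, 5 were higher and 1 was lower without overlap (6.63% and 1.69% of all genes), and the median was 0.63 beside 0.59 over all genes. Adgre1, which encodes the macrophage protein F4/80 (chr9:9431888-9585852, minus strand), was the best covered of these 6. It had 686, 1404 and 829 scaled TPM on soft gels and 172, 144 and 194 on stiff gels, on 165, 281 and 599.8 against 36.5, 22.2 and 52.0 read pairs. The lowest soft library was far above the highest stiff one, with means of 973 ± 380.4 and 169.6 ± 25.1 (SD, n = 3 each), a ratio of 5.74. The difference was not past the threshold (2.45 ± 0.89 SE on the log2 scale, adjusted p = 0.303, limma). With the precision weights that voom takes from read pairs it was (2.32, adjusted p = 6.84e-05, limma on voom values), and over 24 alternatives the adjusted p ran up to 0.685 while the difference stayed between 2.17 and 2.68. Neonate gel libraries held 0 to 19.0 scaled TPM. The median of the whole list relative to all genes ran from -0.28 to 0.76 over 19 settings.

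Other genes of the list were thinner. Trem2, a receptor of microglia for lipids and debris, had 27.2, 23.0 and 43.2 scaled TPM on soft gels and 3.76, 0 and 0 on stiff gels (4.21 ± 1.14 SE, adjusted p = 0.156, limma). Tyrobp, its signalling adaptor, had 61.4, 190.1 and 172 on soft gels and 42.4, 10.5 and 0 on stiff gels (4.0 ± 1.24 SE, adjusted p = 0.221, limma). C1qc, a chain of complement C1q, had 30.1, 96.4 and 33.0 on soft gels and 0, 19.5 and 0 on stiff gels (4.10 ± 1.05 SE, adjusted p = 0.143, limma). All 3 were higher in every soft library.

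Lyz2, lysozyme, ran the other way with 7.97, 112 and 169.9 on soft gels and 330.0, 228 and 505 on stiff gels, lower in every soft library (-2.60 ± 1.17 SE, adjusted p = 0.41, limma). Gpnmb, a glycoprotein of lipid-laden phagocytes, was among the highest mRNAs on both gels, with 958, 1781 and 2183 on soft gels and 1264, 1530.2 and 1361 on stiff gels, and its groups overlapped (0.17 ± 0.66 SE, adjusted p = 0.964, limma). Cd74, the invariant chain of MHC class II, had 23.3, 16.2 and 107 on soft gels and 174, 207 and 48.0 on stiff gels. B2m, the light chain of MHC class I, had 295, 437 and 419.8 on soft gels and 185, 131 and 109 on stiff gels, without overlap (1.45 ± 0.65 SE, adjusted p = 0.407, limma). Of 18 tested genes of MHC and antigen processing 14 had the higher level on soft gels and 4 the lower, 2 were higher without overlap and 0 lower (6.63% and 1.69% of all genes), and the median was 1.04. Relative to all genes that median stayed above 0 in all 19 settings, from 0.32 to 1.42.

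Among the 1820 genes above 0 in all 6 libraries with a mean of at least 20 scaled TPM on the higher gel, 115 were higher on soft gels without overlap and 153 were lower. The 12 with the largest and the 12 with the smallest log2 difference were examined, and none of these 24 passed the threshold, their adjusted p lying between 0.143 and 0.447 (limma). Besides Adgre1 and Fau, the higher ones included Gpi, the glycolytic enzyme glucose-6-phosphate isomerase, with 83.2, 118 and 59.4 scaled TPM on soft gels and 9.25, 23.2 and 12.7 on stiff gels (2.49 ± 0.63 SE, adjusted p = 0.143, limma). Hist3h2a, a histone H2A gene, had 38.7, 41.9 and 58.4 on soft gels and 5.60, 13.2 and 7.58 on stiff gels (2.33 ± 0.58 SE, adjusted p = 0.143, limma). Tial1, an RNA-binding protein of stress granules, had 30.0, 28.4 and 23.6 on soft gels and 4.14, 4.49 and 5.77 on stiff gels (2.29 ± 0.61 SE, adjusted p = 0.155, limma). Within each gel its 3 libraries lay close together. The remaining 7 were Plek, Picalm, Capza1, Copb2, Mlx, Kcnj14 and Mtss1l, where Capza1 overlaps St7l and Mlx overlaps Psmc3ip.

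Among the lower ones was Ezh2, the methyltransferase of Polycomb repressive complex 2, with 1.57, 19.0 and 9.24 scaled TPM on soft gels and 38.9, 42.1 and 112 on stiff gels (-2.84 ± 0.76 SE, adjusted p = 0.155, limma). Ywhab, a 14-3-3 adaptor protein that binds phosphorylated partners such as YAP, had 9.10, 1.56 and 6.02 on soft gels and 26.1, 74.8 and 24.8 on stiff gels (-2.73 ± 0.83 SE, adjusted p = 0.22, limma). Adcy3, an adenylyl cyclase, had 12.8, 11.8 and 7.07 on soft gels and 40.2, 78.9 and 47.8 on stiff gels (-2.27 ± 0.69 SE, adjusted p = 0.22, limma). Each of the 3 genes was lower in every soft library. The others were Lyz2, Sap30bp, Zfp865, Dcaf13, Zfp511, Lrrc57, E4f1, Ube2m and Fubp1.

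**Figure D5:**
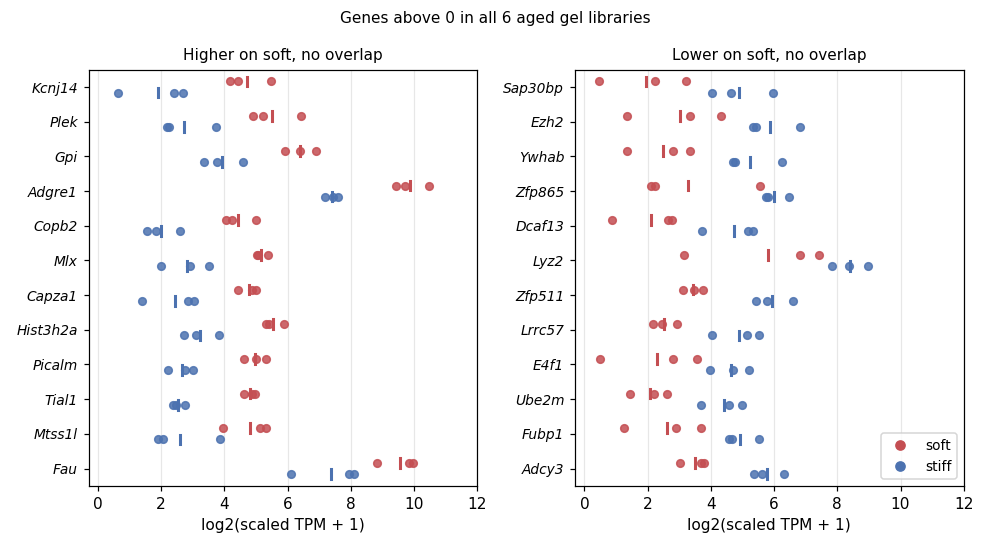
Levels as log2(scaled TPM + 1) of the 12 genes covered in all 6 aged gel libraries with the largest differences higher on soft gels (left) and of the 12 lower on soft gels (right), with a point per library (red soft, blue stiff) and a tick at each group mean of the log2 values. No soft point of a gene overlaps its stiff points, as with Gpi (59.4 to 118 scaled TPM on soft, 9.25 to 23.2 on stiff gels) and Ezh2 (1.57 to 19.0 on soft, 38.9 to 112 on stiff gels).

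The machinery to which the called genes belong was described by its other members. Of 24 dynein and dynactin genes 16 had the higher level on soft gels and 8 the lower, with Dctn6 alone called. Without overlap 4 were higher and 2 lower (6.63% and 1.69% of all genes), and the median was 0.33, below the 0.59 of all genes. Dctn5, which sits beside Dctn6 at the pointed end of dynactin, was listed at 0 in all soft libraries and had 6.71, 25.6 and 7.34 scaled TPM on stiff gels (-3.58 ± 1.21 SE, adjusted p = 0.263, limma). Dynlrb1, a dynein light chain, had 62.9, 27.4 and 12.5 on soft gels and 80.6, 213 and 90.2 on stiff gels (-2.01 ± 0.70 SE, adjusted p = 0.286, limma). Capza2, the capping protein of actin and of dynactin, had 13.5, 6.83 and 23.4 on soft gels and 0, 2.36 and 0 on stiff gels (3.23 ± 1.05 SE, adjusted p = 0.246, limma). Subunits of the complex thus lay on both sides of 0.

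Of 25 SNARE and membrane fusion genes 18 had the higher level on soft gels, 3 of them without overlap (6.63% of all genes), with a median of 1.27 beside 0.59 over all genes. Beside Stx4, Stx1a, a syntaxin of regulated exocytosis, had 29.7, 10.6 and 14.5 scaled TPM on soft gels and was listed at 0 on all stiff gels (4.15 ± 0.97 SE, adjusted p = 0.126, limma). Of 17 V-ATPase genes 11 had the higher level on soft gels, 3 of them without overlap (6.63% of all genes), with a median of 0.98. Atp6ap2, an accessory protein of the pump, had 190.3, 227 and 312 on soft gels and 80.8, 61.5 and 121 on stiff gels, higher in every soft library (1.49 ± 0.74 SE, adjusted p = 0.465, limma). Relative to all genes the V-ATPase median ran from -0.09 to 0.86 over 19 settings and the SNARE median from 0.19 to 1.14.

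RNA-binding and splicing genes had one of the highest list medians, 1.48 over 31 tested genes. Of these 23 had the higher level on soft gels and 7 the lower, 8 were higher without overlap (6.63% of all genes), and 1, Pcbp2, was called (0.0792% of all genes). Ptbp1, the polypyrimidine tract binding protein that represses neuronal exons, had 50.7, 8.34 and 26.8 scaled TPM on soft gels and 10.5, 0 and 0.398 on stiff gels (3.23 ± 0.89 SE, adjusted p = 0.174, limma). Hnrnpm, a splicing regulator, had 35.3, 29.1 and 25.9 on soft gels and 25.3, 0 and 0 on stiff gels (3.38 ± 1.0 SE, adjusted p = 0.210, limma). Stiff replicate 1 overlapped with the soft libraries in Ptbp1 and came near them in Hnrnpm. The median of this list relative to all genes stayed above 0 in all 19 settings, from 0.14 to 1.86.

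CDK inhibitor and senescence genes had a median of 1.59 over 17 tested genes, with 12 higher on soft gels, 4 lower and 3 higher without overlap (6.63% of all genes). Cdkn1a, which encodes the cell cycle inhibitor p21, had 23.1, 37.4 and 39.4 scaled TPM on soft gels and 6.77, 12.8 and 6.33 on stiff gels (1.86 ± 0.99 SE, adjusted p = 0.502, limma). Its soft libraries all exceeded the stiff ones, on 3.21 to 16.5 against 0.830 to 1.14 read pairs. Cdkn1c, which encodes p57, had 4.19, 7.98 and 6.47 on soft gels and was listed at 0 on stiff gels (2.81 ± 1.07 SE, adjusted p = 0.326, limma). Cdkn2a, the senescence marker p16, was too low to be tested.

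Oxidative phosphorylation genes had a median of 0.73 over 74 tested genes, with 50 higher on soft gels and 21 lower. Without overlap 9 were higher and 0 lower (6.63% and 1.69% of all genes). Relative to all genes the median ran from -0.09 to 0.40 over 19 settings. Cox4i1, a subunit of cytochrome c oxidase, had 257, 221 and 218 scaled TPM on soft gels and 157, 48.0 and 32.2 on stiff gels (1.87 ± 0.59 SE, adjusted p = 0.225, limma). Atp5o, of the ATP synthase, had 18.6, 41.6 and 18.5 on soft gels and was listed at 0 on all stiff gels (4.66 ± 1.01 SE, adjusted p = 0.0837, limma). Sdhb, of succinate dehydrogenase, had 59.8, 53.1 and 18.5 on soft gels and 10.5, 1.14 and 0 on stiff gels (3.78 ± 1.02 SE, adjusted p = 0.155, limma). The soft libraries exceeded the stiff ones in all 3 genes. Of 38 proteasome genes 26 had the higher level on soft gels and 12 the lower, with a median of 0.64, and Psma7 had 192, 201 and 184 on soft gels and 139, 34.3 and 41.7 on stiff gels (1.70 ± 0.56 SE, adjusted p = 0.249, limma).

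Lists with medians near that of all genes included S phase genes, with 0.66 over 25 genes, cholesterol synthesis, with 0.67 over 22, and glycolysis, with 0.68 over 21. G2 and M phase genes had a median of 0.33 over 24, lysosome genes 0.46 over 29 and translation factors 0.28 over 35. Tpt1, a translationally controlled protein whose mRNA also starts with pyrimidines, had 689, 566 and 714 scaled TPM on soft gels and 118, 346 and 351 on stiff gels (1.42 ± 0.44 SE, adjusted p = 0.221, limma). It was higher in every soft library. Cst3, cystatin C, had 2419, 1319 and 1521 on soft gels and 639, 962 and 1609.9 on stiff gels, with overlap, and Fth1, the ferritin heavy chain, whose locus overlaps Fads2, had 3113, 4556 and 2745 on soft gels and 4426, 2843 and 2423 on stiff gels. These 2 were among the highest mRNAs of the aged gel libraries, and neither separated the gels.

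Over the 2985 genes above 0 in all 6 libraries, Pearson's correlation of log2 levels across genes was 0.673 to 0.728 between soft libraries, 0.612 to 0.641 between stiff libraries and 0.588 to 0.702 between a soft and a stiff library. Libraries of different gels were therefore about as alike as libraries of the stiff gel. The points of these correlations share libraries and genes, and no test was made of them.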

How the data were processed

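Total RNA of 18 rat libraries was measured by RNA sequencing, and 6 of them, 3 aged soft and 3 aged stiff, are compared here. The members of this comparison and all 47 gene lists were chosen with earlier results of these data known. Per the labels' protocols RNA was extracted with a Zymo Directzol microkit and libraries were made with the SMARTer Stranded Total RNA pico input kit. Trimmomatic, Bowtie and HISAT2 appear in the submitters' processing notes, and per the file headers StringTie 1.3.2d gave TPM, FPKM and coverage per annotated transcript, without a strand option, so reads of 2 genes that overlap on opposite strands are not separated. Versions of the other tools are not given in the sources used here. The deposited values kept for each transcript are the TPM and the coverage that the authors' run wrote. Replicate numbers come from the titles, and names in the headers differ from them.

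TPM was summed per gene symbol (17337 genes). Read pairs were estimated as coverage times exon length over 300 bases, since sequencing was in pairs of 150 bases. Each library was scaled by the median of ratios over 1644 genes with coverage in all 18 libraries. The test kept 15144 genes whose TPM reached 1 in 3 or more libraries. Values of log2(scaled TPM + 1) were fitted in limma 3.58.1 (R 4.3.3, statmod 1.5.0) with 6 group means and a variance trend, giving 12 residual and 14.56 prior degrees of freedom, and p was adjusted by Benjamini-Hochberg with a threshold of 0.05. A fold on this scale understates the change of low genes. Library measures were tested by exact permutation in scipy 1.17.1. Lists were described by counts and medians, with no set test. Non-overlap means that every soft value lies on the same side of every stiff value.

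Named are the called genes, the 12 genes each way with the largest non-overlapping difference among those above 0 in all 6 libraries and with a mean of at least 20 scaled TPM, the 10 highest genes outside ribosomal RNA, members of each list by smallest p and highest level, and markers fixed by name. Rpl11, Rpl39 and Rplp1 are outside this rule. Some genes that the rule selects are not reported here. Alternatives were no filter or a TPM filter of 5, a pseudocount of 0.1, rescaling without ribosomal RNA, no scaling, quantile normalization, voom, array weights, only the groups compared, a replicate block, thinning, no aged replicate 1 libraries, and each library left out. Coordinates come from the files (rn6) and are left out for symbols with several loci. Start regions are from RefSeq on GRCr8.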

Additional observations from a re-analysis of the deposited data

Results flagged for a closer look

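In the main fit the soft minus stiff difference of Dctn6 differed between aged and neonate cells, with an interaction of 6.12 on the log2(scaled TPM + 1) scale (adjusted p = 0.0475, limma), and no other gene passed that test. It had 32.4, 31.2 and 29.5 scaled TPM in the aged soft libraries and was listed at 0 in the 3 aged stiff libraries, while the neonate soft libraries had 28.2, 39.6 and 31.1 and the neonate stiff libraries 38.3, 188 and 51.6. The aged soft levels rest on 2.34, 1.87 and 6.41 read pairs. Under 24 alternatives its aged difference ran from 2.07 to 8.28 and the adjusted p of that difference from 8.78e-05 to 0.652 (limma). The interaction with age called 0 genes without a filter, without scaling and after rescaling without ribosomal RNA. It also called 0 genes with quantile normalization, with voom and with array weights. The part of the lower coverage of the aged stiff libraries was not tested.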

How the results depend on the processing

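The count of 12 called genes, all higher on soft gels, became 6 with a TPM filter of 5, 1 without scaling, 20 (17 higher, 3 lower) with quantile normalization, 6 (3 higher, 3 lower) with voom, 0 with array weights (1187 at an unadjusted p under 0.05), 0 with only the groups compared (750 at an unadjusted p under 0.05), and 117 (109 higher, 8 lower) without the aged replicate 1 libraries. It was between 3 and 69 when 1 of the 6 libraries was left out, with 69 without stiff replicate 1, 60 without stiff replicate 3, 6 without soft replicate 1 and 3 without soft replicate 3. Leaving out 1 neonate gel library gave 1 call for soft replicate 1, soft replicate 2, stiff replicate 1 or stiff replicate 3. It gave 7 calls for soft replicate 3 or stiff replicate 2. The calls thus depend on libraries outside the aged comparison. The count of 1 for the interaction with age became 0 without a filter, without scaling, after rescaling without ribosomal RNA, with quantile normalization, with voom and with array weights, 6 without the aged replicate 1 libraries and 3 after thinning, and it was between 0 and 6 with 1 library left out. The cause of these changes was not tested. Of the 12 genes 10 were shared with the quantile calls, 4 with those without the aged replicate 1 libraries, 2 of 17 after thinning and 0 with voom. The median difference of all genes, 0.59, was 0.54 without scaling, 0.54 after rescaling without ribosomal RNA, 0.03 under quantile normalization and 0.00 under voom.

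Deviations of same-numbered soft and stiff libraries correlated weakly over genes, at 0.118, 0.016 and 0.079, and those of other pairings at -0.122 to 0.042. Soft replicates 1 and 3 correlated best with the stiff library of the same number, and soft replicate 2 with stiff replicate 3. Whether same-numbered libraries share a source was not tested, and the main fit did not pair them. A fit with the replicate block called 13 genes and 1 interaction. Of the counts of called genes and interactions under alternatives 29 moved by over 1.5 times and 12 did not. With all neonate libraries kept and counting only fits that tested the gene, the 12 called genes lost their call in 94 fits and changed direction in 0, and other named genes gained one in 28. Among the uncalled genes and the list medians 218 values moved beyond the spread, and after thinning the medians of defensin and ribosomal RNA genes had no value. Depth limits single genes: on a 2 kb transcript 3.07 to 13.4 TPM correspond to 1 read pair, so the levels of low genes rest on few reads.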
